A study of Mus musculus with 7 samples.

Results

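Histamine is handled by the products of 7 genes that are described here: Hdc makes it, Slc18a2 loads it into granules, Hnmt breaks it down, and Hrh1, Hrh2, Hrh3 and Hrh4 encode its receptors. They were found by gene symbol in the array annotation. All 7 genes were found, each by 1 probe set, out of 35557 probe sets and 18187 named genes. Their messenger RNA was measured in eosinophils, the granulocytes of allergic inflammation, which had been purified by cell sorting from BALB/c mouse lungs. There were 4 libraries from saline lungs and 3 from lungs given OVA, taken here as the allergen ovalbumin. Genotype, age, sex, the schedule of sensitisation and challenge, and the number of animals in a library are not given in the labels, and p-values therefore cover only the spread among libraries, which may be technical. Levels are log2 values from robust multi-array averaging (RMA), and differences are OVA minus saline on the log2 scale.

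Histamine arises from the amino acid histidine in 1 step, the removal of its carboxyl group by histidine decarboxylase, the product of Hdc, which needs pyridoxal phosphate. Mast cells and basophils are the main producers and store histamine in granules bound to serglycin proteoglycans. Its release is triggered when allergen cross-links antibody bound to the high-affinity IgE receptor. In tissue it is inactivated by methylation or by oxidation. Of its G protein-coupled receptors, H1 acts mainly through Gq and phospholipase C, H2 through Gs and adenylyl cyclase, and H3 and H4 through Gi. H1 is known for smooth muscle contraction and vessel leak in the airways, H2 for gastric acid secretion and for dampening of leukocytes, H3 for control of transmitter release in neurons, and H4 for chemotaxis of eosinophils and mast cells.

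Among the libraries, the 3 from OVA lungs resembled each other more closely (correlation across genes of 0.9904 to 0.9936) than the 4 from saline lungs did (0.9738 to 0.9898). The saline libraries form a pair of replicates 1 and 2 and a pair of replicates 3 and 4 in several of the profiles below. Values without either pair are therefore given where they matter. Some of the 10 eosinophil markers read were bright throughout: Ccr3, the eotaxin receptor, lay between 11.75 and 12.05 in all 7 libraries, and Alox15, a lipoxygenase of eosinophils, between 12.14 and 12.62. Others were low in saline: Epx was 6.44 to 6.65 in saline and 8.73 to 9.53 in OVA, and Rnase2a 4.20 to 4.60 and 8.04 to 9.62. By limma, 5 of the 10 were higher and 1 lower in OVA at an adjusted p under 0.05. As a yardstick for background, the median of the 5222 negative controls on the array was 5.91 ± 0.04 in saline (SD, n = 4) and 6.09 ± 0.07 in OVA (SD, n = 3).

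Hdc messenger RNA was lower and Hrh1 messenger RNA higher in eosinophils from OVA lungs, and the other 5 genes did not pass the test. Thus 2 of 7 were called, where 6.44% of all genes were. By limma, at an adjusted p under 0.05, 1 of the 7 genes was higher, where 5.28% of all genes were, and 1 was lower, where 1.17% of all genes were. These were also the genes whose groups did not overlap: Hrh1 was higher in each OVA library than in any saline library, as were 11% of all genes, and Hdc lower in each, as were 8.61%. The median difference over all genes was -0.07. At an unadjusted p under 0.05 the count was the same, 2 of 7.

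**Figure D1:**
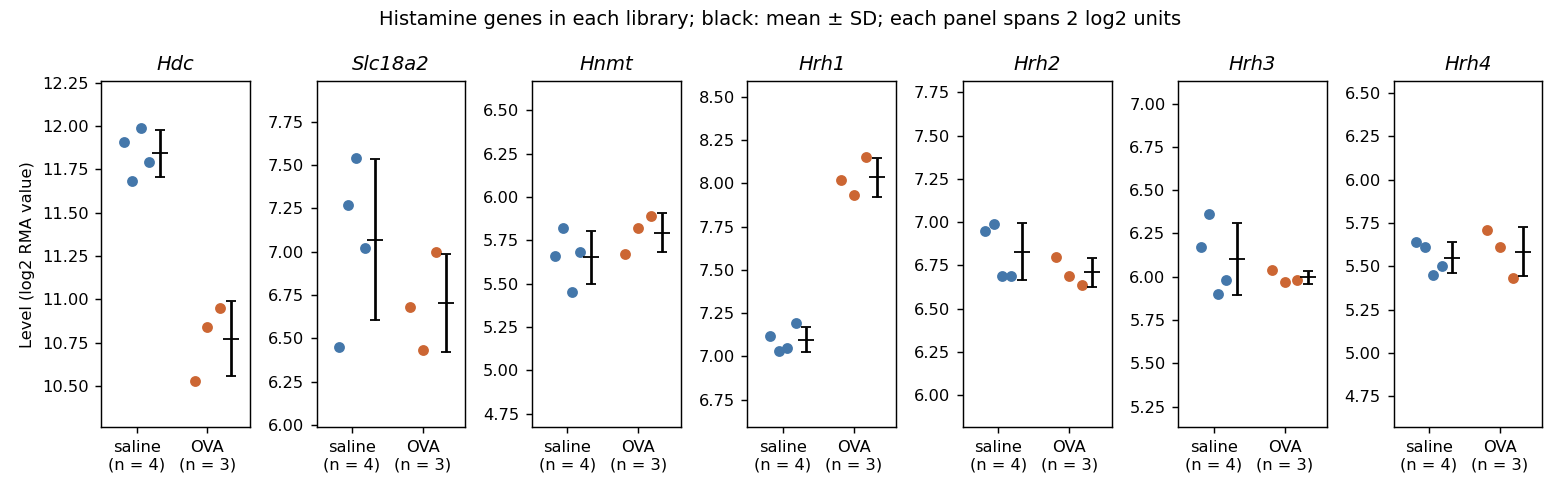
Level of each histamine gene in each library (log2 RMA value, vertical axis), with 1 point per library, saline (n = 4) on the left of each panel and OVA (n = 3) on the right, and black bars for mean ± SD. The groups stand apart for Hdc (10.53 to 10.95 in OVA, 11.68 to 11.99 in saline) and for Hrh1 (7.93 to 8.15 in OVA, 7.03 to 7.19 in saline), and overlap in the other panels.

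Hdc, the histamine-forming enzyme, was 11.91, 11.68, 11.99 and 11.79 in saline replicates 1 to 4 and 10.53, 10.84 and 10.95 in OVA replicates 1 to 3. The lowest saline library thus lay above the highest OVA library, and OVA replicate 1 was the lowest of all. Between 98.4% and 99.6% of negative control probe sets lay below Hdc in each library, so its level stood well clear of background in both groups. Hdc fell by 1.07 (SE 0.13, 95% interval -1.36 to -0.77), a 2.1-fold difference, from 11.84 ± 0.14 (SD, n = 4) to 10.77 ± 0.22 (SD, n = 3), with a limma adjusted p of 0.0018. The two-sided exact permutation test of the group means gave p = 0.02857, the smallest that 4 against 3 libraries allow. The difference ran from -1.16 to -0.95 over the 18 other settings tried and passed the test in all 18. In bulk RNA, fewer cells with the transcript and less transcript per cell cannot be told apart.

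The promoter of Hdc is shown because it is the gene that fell, with that of Slc18a2, the next gene of the same storage route, and that of Hrh1, the gene that rose. The sequences are RefSeq windows of GRCm38.p6, 250 bases before to 50 bases after an annotated start, 5′ to 3′ on the gene's strand. Hdc lies at chr2:126618629-126618928 on the minus strand, Slc18a2 at chr19:59260628-59260927 on the plus strand and the most upstream of 4 Hrh1 windows at chr6:114397686-114397985 on the plus strand. Capitals mark matches to any of 5 motifs on either strand, with no overlap between matches in these 3 windows. The core of sites for GATA factors was searched as GATAA. The E-box, bound by factors such as Mitf, was searched as CACGTG. The GC box of Sp1 was searched as GGGCGG. The cyclic AMP response element, bound by Creb1, was searched as TGACGTCA. The TATA box was searched as TATAAA.
Hdc: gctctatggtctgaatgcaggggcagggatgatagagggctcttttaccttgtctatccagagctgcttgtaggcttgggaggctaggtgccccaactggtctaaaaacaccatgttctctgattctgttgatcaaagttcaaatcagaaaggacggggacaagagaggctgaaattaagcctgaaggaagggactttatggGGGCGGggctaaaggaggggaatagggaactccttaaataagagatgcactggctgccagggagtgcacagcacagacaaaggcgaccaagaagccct
Slc18a2: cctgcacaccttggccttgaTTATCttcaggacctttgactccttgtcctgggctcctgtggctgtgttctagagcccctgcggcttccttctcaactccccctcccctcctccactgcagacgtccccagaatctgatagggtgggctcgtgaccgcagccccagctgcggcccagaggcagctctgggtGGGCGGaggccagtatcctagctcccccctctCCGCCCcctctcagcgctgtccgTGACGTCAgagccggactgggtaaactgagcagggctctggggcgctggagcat
Hrh1: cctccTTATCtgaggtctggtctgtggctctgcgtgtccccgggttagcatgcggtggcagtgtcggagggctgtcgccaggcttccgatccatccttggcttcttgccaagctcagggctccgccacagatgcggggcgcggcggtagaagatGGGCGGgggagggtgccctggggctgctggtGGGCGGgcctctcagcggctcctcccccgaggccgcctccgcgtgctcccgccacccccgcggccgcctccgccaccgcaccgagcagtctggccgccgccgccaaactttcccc

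The Hdc window held 1 GC box and no match to the other search strings, while the Slc18a2 window held 1 GATA core, 2 GC boxes and 1 cyclic AMP response element. The search for GATAA left out GATA followed by another base. The letters gatag, unmarked here, stand in the Hdc and in the Slc18a2 window, so these counts do not set the 2 apart in GATA sites. The most upstream Hrh1 window held 1 GATA core and 2 GC boxes. Counted from upstream, Hrh1 window 2 held 5 GC boxes and no GATA core, and windows 3 and 4 each held 1 GATA core and no GC box. Of 32851 promoter windows of the same length, 35.7% held a GC box, 25.4% the GATA core, 13.6% the TATA box, 7.15% the E-box and 1.79% the cyclic AMP response element. These matches describe letters in the windows and were not measured as binding. The transcription factors reported at Hdc in mast cells or basophils (10 genes, among them Gata2, Mitf, Sp1 and Creb1) had 0 members called in either direction by limma, and 0 at an unadjusted p under 0.05. Their median difference was 0.12. Gata2, a zinc finger factor of mast cells and basophils, was 6.73 ± 0.04 in saline (SD, n = 4) and 6.74 ± 0.05 in OVA (SD, n = 3). Sp1 and Creb1, the 2 brightest of the list, differed by 0.31 (SE 0.19) and 0.18 (SE 0.13), with limma adjusted p of 0.369 and 0.447. Without saline replicates 3 and 4, Sp1 was called higher (0.60, adjusted p = 0.0336), the 1 call of the list under that setting.

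Because Hdc is best known from mast cells and basophils, markers of both were read in the same libraries. Of 14 mast cell markers, 0 were called by limma and 0 had an unadjusted p under 0.05, and 9 had a mean under the negative control median. Without saline replicates 3 and 4, 1 was called lower. Cpa3, a carboxypeptidase of mast cell granules, lay between 4.47 and 5.03 in all 7 libraries. Fcer1a and Ms4a2, chains of the high-affinity IgE receptor, lay between 4.45 and 4.80 and between 5.19 and 5.45. These 2 genes were counted with the basophil markers and not among the 14. Kit, the stem cell factor receptor, was brighter, at 7.48 to 8.38 in saline and 7.53 to 8.02 in OVA (limma adjusted p = 0.606). Over the mast cell list the mean level per library was 5.36 to 5.62 in saline and 5.29 to 5.44 in OVA.

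Basophil markers were in part at background. Mcpt8, a basophil protease, was 5.52 to 6.16 in saline and 5.09 to 5.62 in OVA, and Prss34, another basophil protease, 6.63 to 7.16 and 6.38 to 6.79, with limma adjusted p of 0.345 and 0.472. Of 10 basophil markers, 5 had a mean under the negative control median. By limma 0 were higher and 1 was lower, where 5.28% and 1.17% of all genes were. With saline replicates 1 and 2 left out 2 were lower. The mean level of the list per library was 6.76 to 6.99 in saline and 6.61 to 6.75 in OVA. The gene that fell was Ifitm1, an interferon-induced transmembrane protein that other leukocytes also express, by 0.91 (SE 0.10, limma adjusted p = 0.000813). Whether a change in such cells had a part in the fall of Hdc was not tested beyond these values.

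The genes whose profiles over the 7 libraries were nearest to that of Hdc, each centred on its own mean, were Ugcg, Ifitm1 and Ifitm3. Ugcg, which makes glucosylceramide, differed from Hdc by a root mean square of 0.112 log2, Ifitm1 by 0.125 and Ifitm3 by 0.126, against a median of 0.563 over 12670 genes compared. Ugcg was 9.36 to 9.61 in saline and 8.34 to 8.69 in OVA, and Ifitm3 11.73 to 12.01 and 10.66 to 10.81. Because these genes were picked by likeness to Hdc over the same libraries, their lower level in OVA follows from that choice. Ifitm genes share much of their sequence, so their separate values are uncertain. A probe set whose symbol the annotation holds as a date was nearer still, at 0.088, and is not named here.

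Storage and breakdown showed no change past the test. Slc18a2, the vesicular monoamine transporter VMAT2 that pumps histamine into granules, was 6.45, 7.27, 7.54 and 7.02 in saline replicates 1 to 4 and 6.68, 6.43 and 7.00 in OVA replicates 1 to 3. Its saline libraries spread over a wider range than those of any other member, and the groups overlapped. The difference was -0.37 (SE 0.24, 95% interval -0.91 to 0.17; limma adjusted p = 0.392), and 57.4% to 79.5% of negative controls lay below it in each library. Without saline replicate 1, the lowest of its group, the difference was -0.57 (limma adjusted p = 0.146), and without saline replicate 3, the highest, -0.21 (0.578). It was not called under any of the 18 other settings, over which it ran from -0.64 to -0.16.

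Hnmt, the cytosolic methyltransferase that inactivates histamine, was 5.66, 5.82, 5.45 and 5.68 in saline and 5.67, 5.82 and 5.89 in OVA. It lay under its library's negative control median in all 7 libraries, so these data set no level for it. Its groups overlapped, with a difference of 0.14 (95% interval -0.12 to 0.40; limma adjusted p = 0.483).

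**Figure D2:**
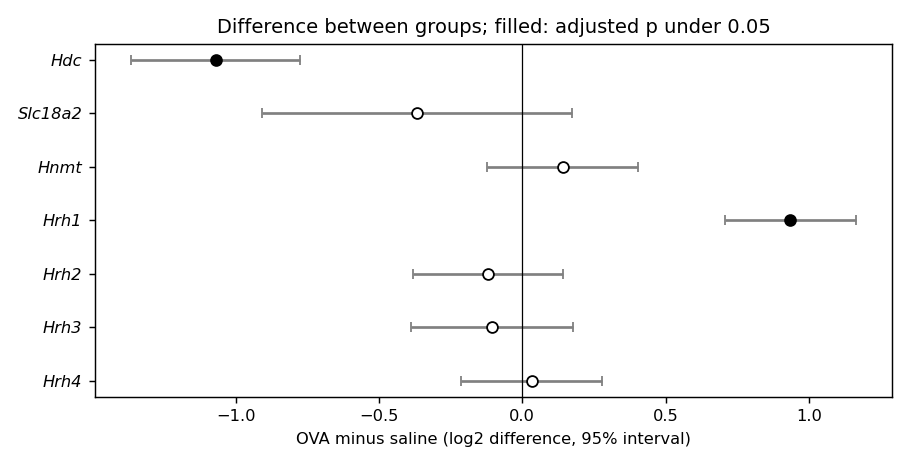
Difference in level between groups for each histamine gene (OVA minus saline, log2, horizontal axis), with 95% intervals from the fit over all genes as bars. Filled points mark an adjusted p under 0.05: Hdc at -1.07 and Hrh1 at 0.94, whose intervals lie clear of 0, while those of the other genes include it.

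Among the receptors, Hrh1 rose and the other 3 did not pass the test. Hrh1 was 7.12, 7.03, 7.05 and 7.19 in saline replicates 1 to 4 and 8.02, 7.93 and 8.15 in OVA replicates 1 to 3. Each group was tight, and every OVA library stood above every saline library. Hrh1 rose by 0.94 (SE 0.10, 95% interval 0.71 to 1.17), a 1.91-fold difference, from 7.10 ± 0.07 (SD, n = 4) to 8.03 ± 0.11 (SD, n = 3; limma adjusted p = 0.000928). The two-sided exact permutation p was again 0.02857, the smallest that this design allows. Its difference was 0.83 to 0.99 over the 18 other settings and passed the test in all 18. Between 69.2% and 72.6% of negative controls lay below it in the saline libraries and 83.0% to 85.0% in the OVA libraries. Hrh1 was thus less clear of background than Hdc. In every library it lay under the 95th percentile of the negative controls, which was 9.24 to 9.46.

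The profiles nearest to that of Hrh1 were those of Pld3, Tnfaip3 and Lrp8, at root mean square differences of 0.066, 0.084 and 0.089 log2, against a median of 0.508. Pld3, a lysosomal exonuclease, rose by 0.97, Tnfaip3, the NF-kappaB inhibitor A20, by 1.04 and Lrp8, a lipoprotein receptor, by 0.90. These genes were picked by likeness to Hrh1 over the same libraries, so their rise follows from that choice and is no separate result. Tnfaip3 was 10.88 to 11.19 in saline and 11.99 to 12.13 in OVA.

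Hrh2 was 6.95, 6.99, 6.69 and 6.69 in saline and 6.80, 6.69 and 6.64 in OVA. Saline replicates 1 and 2 were the high libraries, and replicates 3 and 4 lay within the OVA range. The difference was -0.12 (95% interval -0.38 to 0.14; limma adjusted p = 0.543), and without saline replicates 1 and 2 it was 0.02. Hrh3 was 6.17, 6.36, 5.90 and 5.98 in saline and 6.04, 5.97 and 5.98 in OVA, with saline replicates 1 and 2 again the highest. It lay above its library's negative control median in 4 of 7 libraries, and its difference was -0.11 (95% interval -0.39 to 0.18; limma adjusted p = 0.617), or 0.06 without those 2 libraries.

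Hrh4, the receptor through which histamine attracts eosinophils, was 5.64, 5.61, 5.45 and 5.50 in saline and 5.71, 5.61 and 5.43 in OVA. The saline range lay within the OVA range. It lay under its library's negative control median in all 7 libraries, and between 36.2% and 44.7% of negative controls lay below it. The probe set thus gave no signal above background in either group, and the difference of 0.03 (95% interval -0.21 to 0.28; limma adjusted p = 0.863) sets no bound on a change in transcript.

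Downstream of the receptors, 3 of 25 signalling genes rose and 0 fell, where 5.28% and 1.17% of all genes did. Their median difference was 0.14, and 8 had an unadjusted p under 0.05 by limma. Gnaq, the G protein subunit that H1 uses, was 8.94, 8.73, 8.59 and 8.81 in saline and 9.53, 9.46 and 9.42 in OVA, and rose by 0.70 (SE 0.11, limma adjusted p = 0.00618). Gna15, a further subunit of the Gq class found in blood cells, rose by 1.26 (SE 0.25, limma adjusted p = 0.0182) from 6.52, 6.37, 7.27 and 7.43 to 8.10, 8.03 and 8.35. Every OVA library lay above every saline library for both genes, as for 11% of all genes, and saline replicates 1 and 2 were the lowest for Gna15. Adcy7, an adenylyl cyclase, rose by 0.40 (SE 0.10, limma adjusted p = 0.038).

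These calls held less firmly than that of Hrh1. Gnaq was not called after quantile normalization once more (0.51, adjusted p = 0.0836) or cyclic loess (0.55, 0.0529). Gna15 was not called without saline replicate 1 (0.0508) or OVA replicate 1 (0.0637), 2 (0.0638) or 3 (0.107). Adcy7 was not called without saline replicate 1 (0.0719) or 3 (0.0905) or OVA replicate 1 (0.118), 2 (0.11) or 3 (0.159). Of the 18 other settings, 5 ended the call of Gna15 and 11 that of Adcy7. Gnas and Gnai2, the subunits used by H2 and by H3 and H4, were 8.76 ± 0.15 and 12.11 ± 0.20 in saline (SD, n = 4) and 8.86 ± 0.10 and 12.16 ± 0.09 in OVA (SD, n = 3), with limma adjusted p of 0.624 and 0.818. These 2 genes were chosen after their values were seen.

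**Figure D3:**
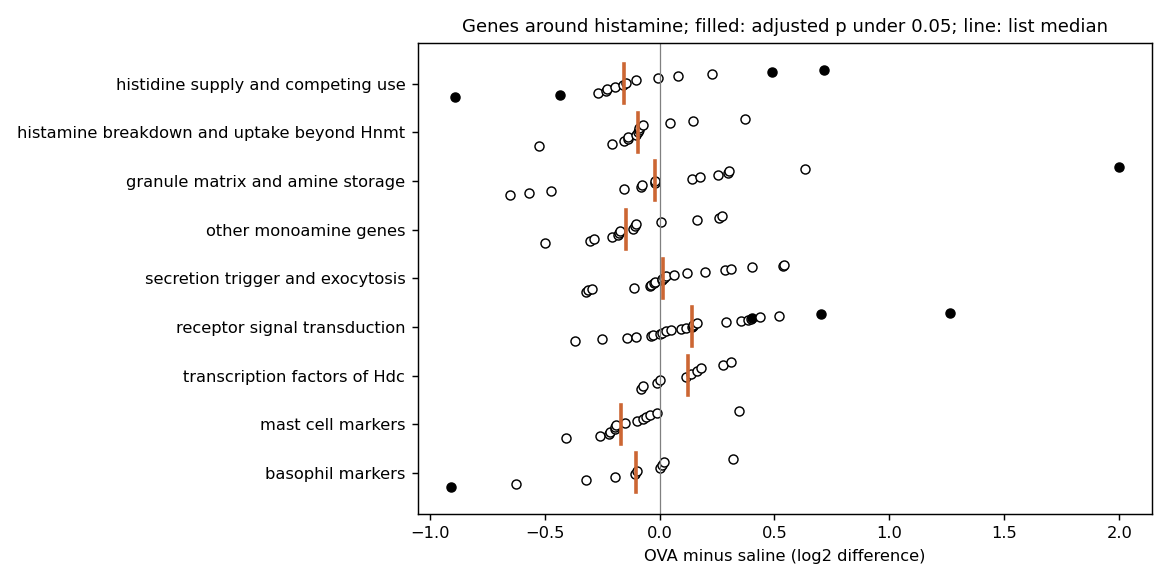
Difference between groups (OVA minus saline, log2, horizontal axis) for each gene of the 9 lists around histamine, with 1 point per gene and a line at the list median. Filled points mark an adjusted p under 0.05: 3 in the signalling list, all to the right of 0, 2 on each side of 0 in the histidine list, 1 each in the granule matrix and basophil lists, and none in the other 5 lists.

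In the supply of histidine and its competing uses, 2 of 14 measured genes rose and 2 fell, where 5.28% and 1.17% of all genes did. The median difference was -0.15, and 4 genes had an unadjusted p under 0.05 by limma. Slc15a3, a lysosomal transporter of histidine and small peptides, was 8.61, 8.26, 8.30 and 8.38 in saline and 7.56, 7.13 and 7.80 in OVA, and fell by 0.89 (SE 0.16, limma adjusted p = 0.0124). Pdxk, the kinase that makes the pyridoxal phosphate which Hdc needs, fell by 0.43 (SE 0.10, limma adjusted p = 0.0339). Hal, which removes the amino group of histidine, rose by 0.49 (SE 0.12, 0.0434), and Slc3a2, the heavy chain of large neutral amino acid transporters, by 0.72 (SE 0.16, 0.0331).

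Of these, Slc15a3 was called with any 1 library left out, but not by the unmoderated model (adjusted p = 0.116). Pdxk was not called without saline replicate 1 (0.0735) or 3 (0.0819) or OVA replicate 1 (0.115), 2 (0.0984) or 3 (0.142). Hal was not called without saline replicate 1 (0.101), 2 (0.0798) or 4 (0.0554) or OVA replicate 1 (0.149), 2 (0.0714) or 3 (0.182), and Slc3a2 not without saline replicate 3 (0.0564) or 4 (0.0521) or OVA replicate 1 (0.104), 2 (0.141) or 3 (0.112). Of the 18 other settings, 10 ended the call of Pdxk, 10 that of Hal and 8 that of Slc3a2. Without saline replicates 1 and 2 together the list held 1 gene higher and 1 lower.

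Other routes of histamine breakdown and uptake, 13 genes with the oxidases Aoc1, Maoa and Maob among them, had 0 called by limma, with 2 at an unadjusted p under 0.05 and a median difference of -0.09. Aldh2, an aldehyde dehydrogenase that acts after the oxidases, differed by -0.53 (SE 0.20, limma adjusted p = 0.183). It was called lower after quantile normalization once more (-0.72, adjusted p = 0.0157) and cyclic loess (-0.68, 0.0206). Mat2a, which makes the methyl donor that Hnmt uses, differed by -0.07 (limma adjusted p = 0.74). Without saline replicates 3 and 4, 1 gene of this list was called higher.

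In the granule matrix and amine storage list, 1 of 15 genes rose and 0 fell, where 5.28% and 1.17% of all genes did. The median difference was -0.02, and 6 genes had an unadjusted p under 0.05 by limma. The gene that rose was Atp6v0a1, a subunit of the proton pump whose gradient drives Slc18a2, by 2.00 (SE 0.15, limma adjusted p = 8.97e-05), from 6.99, 6.77, 6.78 and 7.33 in saline to 8.89, 9.06 and 8.95 in OVA. Atp6v0a1 was called under all 18 other settings. Srgn, the serglycin core protein to which histamine binds, was 13.09 ± 0.07 in saline (SD, n = 4) and 13.07 ± 0.04 in OVA (SD, n = 3), with a limma adjusted p of 0.917. Srgn was chosen after its values were seen. With saline replicates 1 and 2 left out, 2 genes of the list were lower.

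The genes of other monoamines (14, among them Ddc, Tph1 and Slc6a4) had 0 called by limma, 3 at an unadjusted p under 0.05 and a median difference of -0.14. Its brightest members, Gch1 and Pts, which make the tetrahydrobiopterin cofactor, differed by 0.26 and 0.16 (limma adjusted p = 0.646 and 0.616). Without saline replicates 3 and 4 both were called higher (0.84 and 0.47, adjusted p = 0.0237 and 0.049), and without replicates 1 and 2 another gene of the list was called lower. Of 20 measured genes that trigger or carry out granule release, 0 were called by limma and 3 had an unadjusted p under 0.05, with a median difference of 0.02. The fusion proteins Snap23 and Vamp8 differed by 0.12 and 0.03 (limma adjusted p = 0.529 and 0.895). Of this list, 3 genes were called higher without saline replicates 3 and 4, and 1 lower without replicates 1 and 2.

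Some genes on the marker lists of other cells also differed between the groups. Which cells carried these transcripts was not tested. Over all genes, 5.28% were called higher and 1.17% lower. Of 12 alveolar macrophage markers 6 were higher and 1 lower in OVA, with Chil3 and Car4 up by 6.20 and 5.36. The other 5 were not called: Plet1 (0.63), Fabp4 (0.42), Cidec (-0.30), Marco (-0.19) and Krt79 (-0.11), named after their values were seen. The mean level of the list per library was 6.84 to 7.07 in saline and 8.42 to 8.84 in OVA. Of 10 measured neutrophil markers 2 were higher (7.48 to 7.84 and 7.66 to 8.12), and of 10 epithelial and stromal markers 1 was (7.31 to 7.69 and 7.72 to 7.82). Lymphocyte, monocyte, and platelet and erythroid markers had 0 of 10, 0 of 8 and 0 of 6 called by limma, with 1, 1 and 3 at an unadjusted p under 0.05. Their median differences were -0.11, -0.08 and -0.51. With saline replicates 1 and 2 left out, 1 lymphocyte marker and 2 platelet and erythroid markers were called lower. With replicates 3 and 4 left out, 1 monocyte marker and 1 platelet and erythroid marker were called lower, and 1 lymphocyte marker higher. The alveolar macrophage marker that was lower was Ear1, a ribonuclease gene also expressed by eosinophils, which was named after its values were seen. Without saline replicates 1 and 2 no alveolar macrophage marker was called lower. Whether cells other than eosinophils had a part in the rise of Hrh1 or the fall of Hdc was not tested. Among 10 eosinophil markers, 5 were higher and 1 lower. With either saline pair left out 5 were higher, and 1 was lower without saline replicates 1 and 2 but 0 without replicates 3 and 4.

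**Figure D4:**
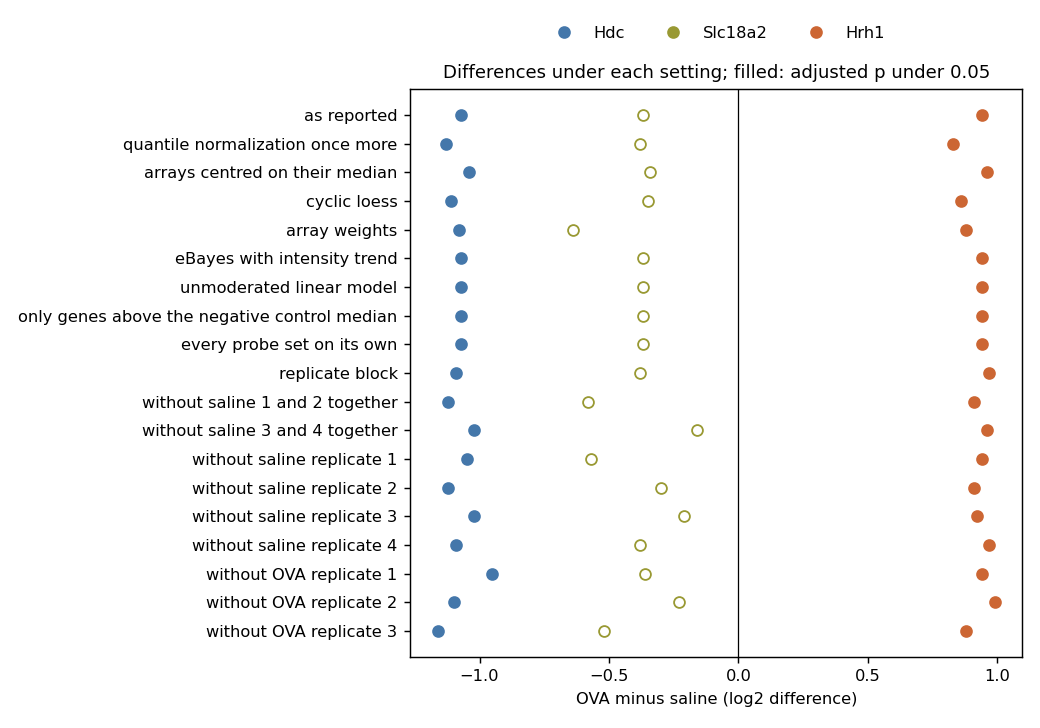
Difference between groups (OVA minus saline, log2, horizontal axis) for Hdc, Slc18a2 and Hrh1 as reported and under each of 18 other settings (vertical axis). Filled points mark an adjusted p under 0.05: Hdc (-1.16 to -0.95) and Hrh1 (0.83 to 0.99) are filled throughout, and Slc18a2 (-0.64 to -0.16) is open throughout.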

How the data were processed

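The log2 levels were deposited by the authors after RMA, per the submitters' processing notes that name no version. This method corrects background, equalises the distributions of the arrays and combines the probes of a set, which removes part of any shift shared by most genes. Probe sets were named from a deposited annotation with no gene coordinates used, and symbols were updated through RefSeq (GRCm38.p6): 16804 by accession, 1296 by symbol, 676 by synonym, while 981 kept the file's symbol and 15800 had none. The 7 value columns of that annotated table match no sample label and were not used. Where a gene had more than 1 probe set (825 genes), the one with the highest mean was taken.

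Groups were compared with limma 3.58.1 (R 4.3.3; lmFit, eBayes, group as the only term), with Benjamini-Hochberg adjustment over all 18187 genes and calls at an adjusted p under 0.05; adjusted p below are from it. The fit was tested on simulated data. The number of arrays limits the precision. Members and lists were chosen with earlier results of these data known. Named genes are the members, up to 4 called genes of each pathway list (otherwise the 2 brightest), mast cell and basophil markers, up to 3 called and 3 brightest of other marker lists, and the 3 nearest profiles of each member above the negative control median.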

Additional observations from a re-analysis of the deposited data

Results flagged for a closer look

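In 7 genes, each one named in the text or a mast cell or basophil marker, 1 saline library lay far from the other 3, by a gap that made up most of the group's range. Chance does this in about 1 in 20 groups. The members, the genes named by the rule and all mast cell and basophil markers were searched, so some such gaps would arise by chance. The gap was 0.833 of the range for Aldh2 (8.61 in saline replicate 2 against 9.11 to 9.21), 0.85 for Rnase2a, an eosinophil marker (4.60 in saline replicate 1 against 4.20 to 4.26), 0.9 for Snap23 (12.13 in saline replicate 1 against 12.40 to 12.43) and 0.854 for Tut4, a gene whose profile is near that of Slc18a2 (8.39 in saline replicate 1 against 9.56 to 9.76). Among the mast cell and basophil markers it was 0.969 for Mcpt8 (6.16 in saline replicate 2 against 5.52 to 5.54), 0.952 for Mcpt4 (5.23 in saline replicate 1 against 5.02 to 5.03) and 0.938 for Mrgprb2 (4.15 in saline replicate 4 against 3.99 to 4.00), all 3 with a mean under the negative control median. None of the 7 histamine genes had such a library.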

How the results depend on the processing

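Hdc and Hrh1 kept their direction and passed the test under all 18 alternatives, and no other member was called under any, though Hnmt and Hrh4 had no value once genes under the negative control median were left out; left-out single libraries gave -1.16 to -0.95 for Hdc and 0.88 to 0.99 for Hrh1. The sign of an uncalled member turned for Hrh2 without saline 1 and 2 (0.02), Hrh3 with cyclic loess (0.01) and without saline 1 and 2 (0.06), and Hrh4 without saline 3 and 4 (-0.04), saline replicate 3 (0) or OVA replicate 1 (-0.03). Of 23 other called genes 12 were called throughout, and 0 of 414 values turned sign. Of 306 values for 17 uncalled genes, 23 turned sign. Without saline 1 and 2 these were Creb1 (-0.01), Cysrt1 (0.03), Gch1 (-0.32), Gls2 (0.01), Olfr267 (0.08), Pde1c (0.08), Pts (-0.15), Slc22a2 (0.02), Tnc (0.07) and Vamp8 (-0.13), and without saline 3 and 4 1810036N14Rik (0.11) and Mat2a (0.08). With cyclic loess they were Olfr267 (0.02) and Pde1c (0.03), after quantile normalization Creb1 (0), Pts (-0.01) and Vamp8 (0), with array weights Vamp8 (-0.02), without saline replicate 2 Gch1 (-0.04, in a range of -0.04 to 0.51 over single libraries), Pde1c (0) and Vamp8 (-0.05, range -0.05 to 0.09), without OVA replicate 1 Mat2a (0, range -0.14 to 0) and without OVA replicate 3 Vamp8 (0).

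Over all genes, 960 were higher and 212 lower (81.9% higher). Array weights gave 1649 higher and 677 lower. These were 243 and 40 by the unmoderated model, and 2191 and 991 without saline 3 and 4. The count lower was 507 after quantile normalization (64.6% higher), 122 after median centring, 472 after cyclic loess (70.1% higher) and 404 without saline 1 and 2. Leaving out 1 library gave 366 to 1219 higher and 67 to 266 lower. The cause was not tested. The recount of the lists without each saline pair was chosen after seeing the data.

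The labels do not say whether the replicate numbers pair the samples. Deviations of same-numbered libraries correlated at 0.273, -0.137 and 0.241, and 3 of 6 libraries correlated best with their own number. So few libraries cannot decide whether the samples were paired. With the replicate number as a block, 1361 genes were higher and 318 lower, Hdc differed by -1.09, Slc18a2 by -0.38 and Hrh1 by 0.97, and no member changed its call.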

Other observations

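The profiles nearest to those of Slc18a2, Hrh2 and Hrh3 differed mainly among the saline libraries, which follows from their choice by likeness to these members. For Slc18a2 they were 1810036N14Rik, Ppig and Tut4, at 0.137, 0.141 and 0.183 log2 (median 0.435), none of them called, though Tut4 was called lower without saline replicate 1 (-0.72, limma adjusted p = 0.0344) and without saline 1 and 2 (-0.76, 0.0297). Saline replicate 1 was the lowest saline library for each of the 3, as for Slc18a2. For Hrh2 they were Gls2, Slc22a2 and Olfr267, at 0.015, 0.029 and 0.029 (median 0.229), and for Hrh3 Tnc, Pde1c and Cysrt1, at 0.023, 0.027 and 0.027 (median 0.242). In all 6, saline replicates 1 and 2 were above saline replicates 3 and 4: Gls2, for example, was 6.24, 6.28, 6.01 and 5.96 in saline and 6.10, 5.97 and 5.92 in OVA.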
